A study of Mus musculus with 23 samples.

Results

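The Cd300 receptors of brain macrophages were examined by RNA sequencing of sorted cells 1 day after an experimental stroke. The members were the 6 genes Cd300a, Cd300lb, Cd300lf, Cd300ld, Cd300c2 and Cd300lg, found by symbol among the 33280 genes of the count table. All 23 libraries came from Ccr2creERT2/+ R26tdT/tdT mice, in which Cre is expressed from the Ccr2 locus, so that tamoxifen marks monocytes and their descendants with the red protein tdTomato (tdT). Mice received the CSF-1R inhibitor BLZ945 (200 mg/kg by gavage for 7 days), which depletes brain macrophages that then repopulate, or its vehicle (CTL). All mice of all groups also received tamoxifen (2 mg/day, on the last gavage day and on 2 later days). A clot was induced 8 weeks later by thrombin placed in the middle cerebral artery, so no group here is free of stroke. Mice of both sexes were used, and their age is stated for the first gavage, in the study's methods and not in the labels.

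Microglia (MG), the macrophages of the brain parenchyma, were sorted as CD45int CD11b+ CD206- cells from vehicle-treated (MG CTL, n = 5) and BLZ945-treated mice (MG BLZ945, n = 5). Subdural CNS-associated macrophages (sdCAMs), which line vessels and leptomeninges, were sorted by CD206 and split by tdTomato, and the study's methods give the sdCAM gate as negative for Ly6C, Ly6G and CD11c, markers of monocytes, neutrophils and dendritic cells. They formed the groups tdT- CTL with 5 libraries, tdT- BLZ945 with 5 and tdT+ BLZ945 with 3. The replicate labels are F1, F2, F3, M1 and M2, and within a treatment 1 label names the same animal or pool in each sorted population. A CTL library held 1 animal, whereas 10 of the 13 BLZ945 libraries held 2 pooled animals (all but the 3 libraries labelled F2), so pooling went with BLZ945 in all but those libraries. This is read from the library names, whereas the study's methods describe every BLZ945 replicate as a pool. The names of BLZ945 F2 and of the BLZ945 M1 pool also share 1 animal number, so these replicates may not be independent. Fits without the BLZ945 M1 libraries were therefore added after the data were seen. In all of these bulk libraries, fewer cells of a type and less RNA per cell cannot be told apart.

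CD300 proteins are single-pass receptors of myeloid cells whose extracellular immunoglobulin-like domain binds membrane lipids, among them the phosphatidylserine that dying cells expose. Some members inhibit: the long cytoplasmic tails of Cd300a and Cd300lf carry tyrosine motifs that recruit phosphatases. Others activate and have short tails: Cd300lb and Cd300c2 signal through the adaptor DAP12 (Tyrobp), and Cd300ld through the Fc receptor gamma chain (Fcer1g). Cd300lg is known from vascular endothelium rather than from macrophages. Macrophages use such lipid receptors to sense and clear dead cells.

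The genes lie on mouse chromosome 11 (GRCm38, GENCODE M21), Cd300a and Cd300lg on the plus strand and the other members on the minus strand, and no exon of a member overlapped an exon of another gene. Parts of the family are nearly identical in sequence, which limits how far their reads can be told apart. The longest coding stretch that Cd300a and Cd300c2 share measured 140 bases. It covers coding bases 289 to 428 of Cd300a (chr11:114893456-114894658, plus strand, exons 2 to 3) and coding bases 280 to 419 of Cd300c2 (chr11:114998335-115000767, minus strand, exons 2 to 3), and both genomic spans hold the intron between these exons. The stretch shared by Cd300lf and Cd300ld measured 134 bases, from coding base 213 to 346 of Cd300lf (chr11:115126150-115126283, exon 2) and from 210 to 343 of Cd300ld (chr11:114987342-114987475, exon 2), both on the minus strand. They are shown because a read inside them fits both genes of the pair:
Cd300a and Cd300c2: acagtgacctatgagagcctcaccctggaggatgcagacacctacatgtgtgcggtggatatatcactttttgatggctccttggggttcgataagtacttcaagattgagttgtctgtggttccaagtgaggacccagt
Cd300lf and Cd300ld: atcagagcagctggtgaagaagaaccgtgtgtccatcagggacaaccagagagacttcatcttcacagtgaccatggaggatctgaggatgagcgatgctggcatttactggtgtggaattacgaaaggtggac

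Of all 50-base windows of its transcripts, Cd300c2 shared 7.16% with other Cd300 genes, Cd300ld 3.89%, Cd300lf 1.91% and Cd300a 1.90%, whereas Cd300lb and Cd300lg shared 0%. How reads that fit several places were counted is not given in the sources used here.

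The promoters of Cd300lf, Cd300ld and Cd300lb are shown because these 3 genes varied most between libraries. Each window (RefSeq, GRCm38.p6, minus strand) runs from 250 bases before to 30 bases after the annotated start. Capitals mark GAGGAAGT, a core sequence bound by PU.1, the transcription factor that directs macrophage development. It was searched on both strands as the only motif, and 926 of 32851 windows of the same length (2.82%) held it. It stood in Cd300lf beginning at base 1 and in Cd300ld at base -143, both counted from the start, and these letters are not in the window of Cd300lb, Cd300a or Cd300c2:
Cd300lf (chr11:115133963-115134242): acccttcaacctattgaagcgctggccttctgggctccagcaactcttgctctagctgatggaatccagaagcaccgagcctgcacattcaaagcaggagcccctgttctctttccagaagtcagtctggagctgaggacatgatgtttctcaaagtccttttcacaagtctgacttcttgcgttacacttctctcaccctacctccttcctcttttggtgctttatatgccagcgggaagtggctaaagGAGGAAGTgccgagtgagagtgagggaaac
Cd300ld (chr11:114989857-114990136): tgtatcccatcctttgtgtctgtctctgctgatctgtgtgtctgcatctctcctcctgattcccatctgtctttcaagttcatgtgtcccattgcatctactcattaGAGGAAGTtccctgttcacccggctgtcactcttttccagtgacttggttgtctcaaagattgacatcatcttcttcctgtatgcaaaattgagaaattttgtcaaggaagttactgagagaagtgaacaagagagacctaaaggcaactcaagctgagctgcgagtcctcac
Cd300lb (chr11:114934342-114934621): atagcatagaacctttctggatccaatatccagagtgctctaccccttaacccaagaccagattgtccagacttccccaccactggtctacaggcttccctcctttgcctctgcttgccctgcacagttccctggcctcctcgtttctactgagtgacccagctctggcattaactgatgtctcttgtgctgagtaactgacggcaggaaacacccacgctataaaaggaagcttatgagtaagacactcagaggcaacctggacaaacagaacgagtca

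The libraries held between 9433960 and 13276081 counts. The sorted populations carried their labels' markers: the CPM (counts scaled to library size) of 6 microglia genes summed to between 14755 and 22877 in MG and to between 1100 and 2261 in sdCAMs, and 7 sdCAM genes summed to at most 47.5 in MG, to between 14255 and 17504 in tdT- sdCAMs and to between 11833 and 13491 in tdT+ sdCAMs, below every tdT- library. The 6 monocyte markers summed to at most 17.3 CPM in MG but reached 233 in tdT- BLZ945 F1 and 99.8 in tdT- BLZ945 M1, against 7.18 to 45.8 in the other sdCAM libraries. The 6 neutrophil markers stood between 0 and 28.1 in MG, with Ly6g at 0 in every one of these libraries. They stood at 74.2 in tdT- BLZ945 F1, where Ly6g, Cxcr2 and Mmp8 had no counts. Other marker sums were 14.2 to 23.5 in MG and 31.4 to 780 in sdCAMs for 6 dendritic cell genes, and 5.46 to 67.2 over all libraries for 6 endothelial genes.

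Per length of exon, Cd300c2 was the highest member in all 23 libraries. Its group means lay between 256.5 and 331 CPM per kb, followed by Cd300a at 38.6 to 59.7 CPM per kb. Cd300ld reached 13.3 to 48.2, Cd300lb 6.20 to 9.70 and Cd300lf 1.77 to 13.8 CPM per kb. The order of the group means was Cd300c2, Cd300a, Cd300ld, Cd300lb and Cd300lf in MG CTL, tdT- CTL and tdT- BLZ945. In MG BLZ945 Cd300lf stood above Cd300lb, with ranges of 11.1 to 20.9 against 5.34 to 19.2 CPM per kb that overlap. In tdT+ BLZ945 Cd300ld (35.1 to 49.0) stood above Cd300a (37.1 to 40.7), and these ranges overlap too.

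**Figure D1:**
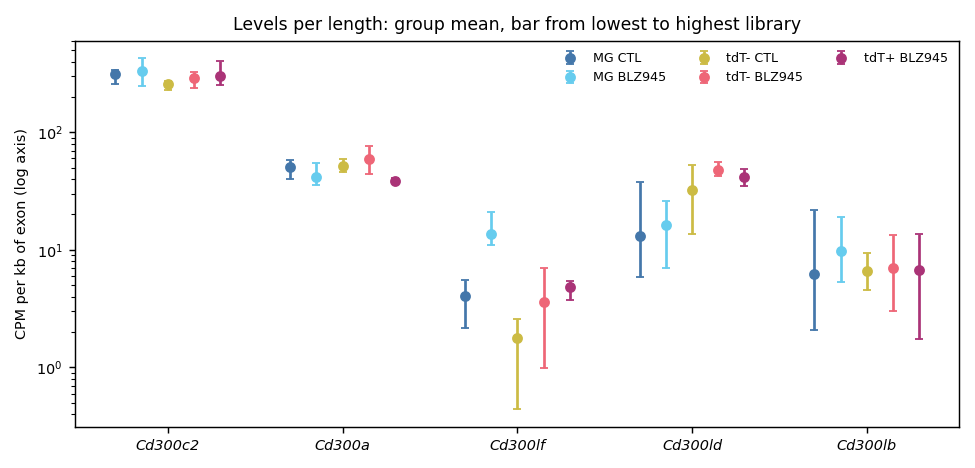
CPM per kb of exon on a log axis for 5 members in the 5 groups; points are group means (n = 5, tdT+ n = 3) and bars run from the lowest to the highest library. Cd300c2 stands above every other member in every group, and Cd300lf has its highest mean, 13.8 CPM per kb, in MG BLZ945.

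Cd300lf, an inhibitory receptor for phosphatidylserine and ceramide, rose in microglia that had repopulated after BLZ945. MG CTL libraries held 19.9 (F1), 28.6 (F2), 22.2 (F3), 11.1 (M1) and 22.2 CPM (M2). MG BLZ945 libraries held 63.7 (F1), 58.1 (F2), 108 (F3), 57.2 (M1) and 68.0 CPM (M2). All 5 repopulated libraries thus lay above all 5 vehicle libraries, with 57.2 CPM as the lowest repopulated and 28.6 CPM as the highest vehicle value. The group means were 70.9 ± 21.0 and 20.8 ± 6.32 CPM (SD, n = 5 each), and the log2 fold change was 1.76 (SE 0.23, 3.38-fold) with an adjusted p of 0.00217 in edgeR's quasi-likelihood test. Cd300lf was the only member of the 5 tested that passed in this comparison, in which 0.408% of all 11264 genes tested did (46 genes).

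The call held in each of the 10 fits that left out 1 library (log2 fold changes of 1.55 to 1.89), the fit without BLZ945 M1 included (1.83, SE 0.24, adjusted p = 0.00298), but not when all 23 libraries were fitted together (log2 fold change 1.77, SE 0.47, adjusted p = 0.279). MG BLZ945 F2, the only MG BLZ945 library named for 1 animal, held 58.1 CPM, within the range of the pooled libraries. The highest library, F3, had a neutrophil marker sum of 17.6 CPM, and M1, the lowest, had 28.1.

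Among BLZ945-treated mice, sdCAMs held less Cd300lf than MG. The tdT- CTL libraries stood at 12.5 (F1), 13.3 (F2), 2.27 (F3), 5.04 (M1) and 12.3 CPM (M2). The tdT- BLZ945 libraries stood at 32.4 (F1), 10.1 (F2), 36.4 (F3), 5.06 (M1) and 8.68 CPM (M2), and the tdT+ libraries at 28.0 (F2), 19.4 (F3) and 26.8 CPM (M2). The tdT- BLZ945 group thus fell apart into F1 and F3 at a high level and the other libraries at the level of tdT- CTL. Library F1 is the library with monocyte and neutrophil marker sums of 233 and 74.2 CPM, whereas F3 had sums of 12.2 and 3.06 CPM. Of the neutrophil markers, Ly6g, Cxcr2 and Mmp8 had no counts in any tdT- BLZ945 library. The Ly6C- Ly6G- gate would remove monocytes and neutrophils, and the part of the marker sums in the result was not tested.

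Within the BLZ945 brains, Cd300lf was lower in tdT- sdCAMs than in MG in 5 of 5 pairs (log2 fold change -1.92, SE 0.49, adjusted p = 0.00456 in edgeR), and the groups did not overlap. It was also lower in tdT+ sdCAMs than in MG in 3 of 3 pairs (log2 fold change -1.52, SE 0.56, adjusted p = 0.0491, edgeR). This second call was lost with the replicate block (adjusted p = 0.0617) and in all 8 fits without 1 library (adjusted p 0.0563 to 0.147). In the CTL brains tdT- sdCAMs were lower in 5 of 5 pairs with a log2 fold change of -1.18 (SE 0.49), which missed the threshold without the block (adjusted p = 0.081 in edgeR) and passed with it (-1.33, SE 0.42, adjusted p = 0.0333).

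**Figure D2:**
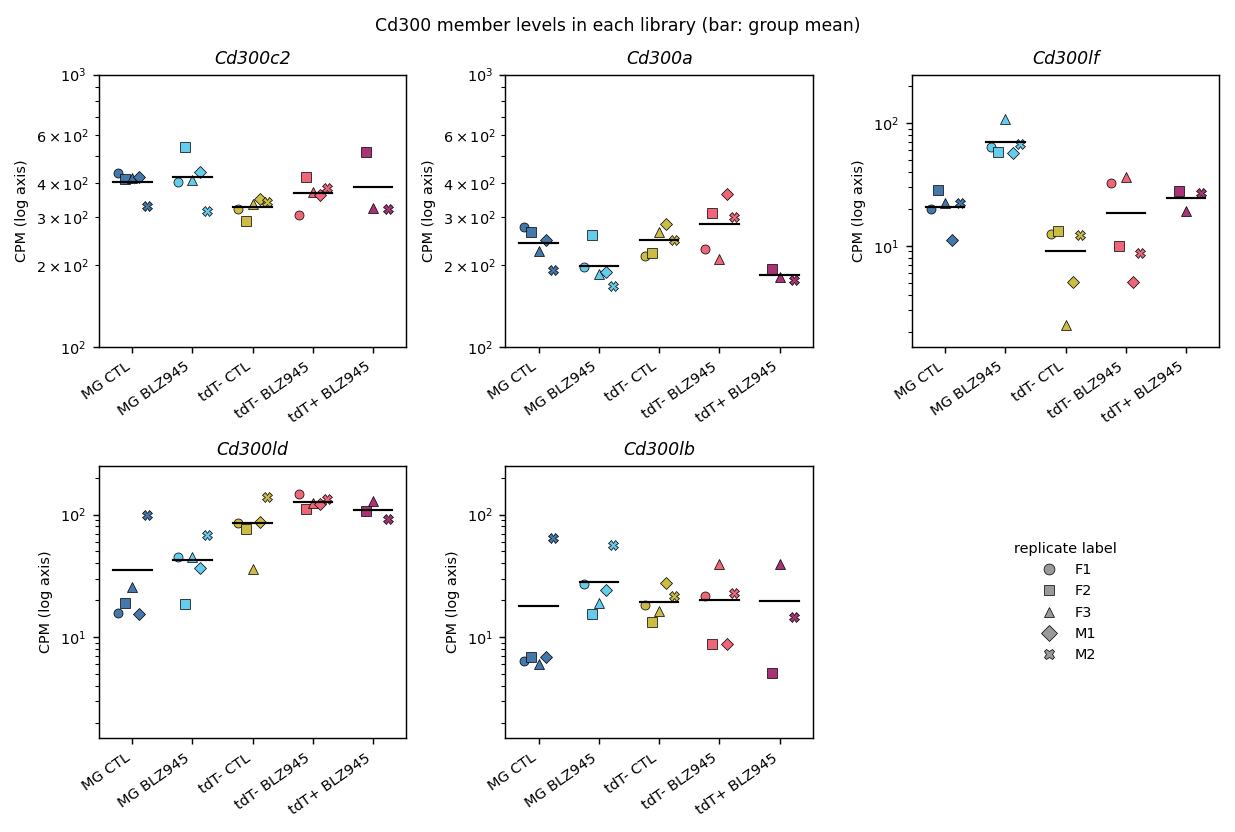
CPM on a log axis in each of the 23 libraries for 5 members; the marker shape gives the replicate label, the colour the group and the bar the group mean. Cd300lf in the 5 MG BLZ945 libraries (57.2 to 108 CPM) lies above all other libraries, and the M2 libraries of MG stand apart for Cd300lb and Cd300ld.

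Cd300lb, an activating receptor that pairs with DAP12, was low in 4 of 5 vehicle microglia libraries and higher in each repopulated library than in those 4. MG CTL held 6.33 (F1), 6.83 (F2), 6.07 (F3), 6.91 (M1) and 64.3 CPM (M2). MG BLZ945 held 26.9 (F1), 15.6 (F2), 18.8 (F3), 24.2 (M1) and 56.0 CPM (M2). The groups overlapped only through MG CTL M2, which was the highest of all 23 libraries. The log2 fold change was 0.62 (SE 0.60, adjusted p = 0.711 in edgeR) with all 10 libraries. Without MG CTL M2 it was 2.11 (SE 0.32, adjusted p = 0.00651 in edgeR), and without both M2 libraries, an alternative chosen after the values were seen, it was 1.70 (SE 0.23, adjusted p = 0.0056). Without MG BLZ945 M2 alone it was 0.21 (SE 0.62, adjusted p = 0.952), so that leaving out 1 library gave 0.21 to 2.11. The group means over all libraries were 18.1 ± 25.8 CPM in MG CTL and 28.3 ± 16.1 CPM in MG BLZ945 (SD, n = 5 each). Without the M2 libraries they were 6.54 ± 0.403 CPM in MG CTL and 21.4 ± 5.11 CPM in MG BLZ945 (SD, n = 4 each).

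In sdCAMs Cd300lb varied between libraries of 1 group more than between groups. The tdT- CTL libraries held 18.2 (F1), 13.3 (F2), 16.2 (F3), 27.5 (M1) and 21.6 CPM (M2), and tdT- BLZ945 held 21.5 (F1), 8.76 (F2), 39.2 (F3), 8.86 (M1) and 23.05 CPM (M2). The tdT+ libraries held 5.07 (F2), 39.5 (F3) and 14.5 CPM (M2). Both F2 libraries of BLZ945-treated sdCAMs lay low and both F3 libraries high, and the groups overlapped. The tdT- CTL libraries exceeded the MG library of the same animal in 4 of 5 pairs, all but M2 (log2 fold change 0.10, SE 0.60, adjusted p = 0.93 by edgeR), and without MG CTL M2 the difference passed (1.57, SE 0.44, adjusted p = 0.012).

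Cd300ld, an activating receptor that pairs with the Fc receptor gamma chain, set the same library apart. MG CTL held 15.8 (F1), 19.2 (F2), 25.6 (F3), 15.5 (M1) and 99.2 CPM (M2). MG BLZ945 held 45.2 (F1), 18.6 (F2), 45.1 (F3), 36.3 (M1) and 68.5 CPM (M2). The M2 library was the highest of both groups, as it was for Cd300lb. The log2 fold change was 0.27 (SE 0.46, adjusted p = 0.86 in edgeR), and 0.92 (SE 0.26, adjusted p = 0.172) without both M2 libraries. Without MG CTL M2 alone it was 1.16 (SE 0.28, adjusted p = 0.0642) and without MG BLZ945 M2 alone 0.026 (SE 0.48, adjusted p = 0.993), which are the ends of the range over the fits without 1 library.

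Other genes stood apart in the same library, here Spp1 and Lgals3, secreted proteins of injury-activated microglia, which were chosen after their values were seen. In MG CTL M2, Spp1 (osteopontin) was at 17119 CPM against 320 to 2130 CPM in the other MG CTL libraries, and Lgals3 (galectin-3) was at 982 against 141 to 232 CPM. The 6 microglia markers summed to 14755 CPM there and to 19558 to 22877 CPM in the others, while the sdCAM markers (22.8 CPM) and the monocyte markers (10.8 CPM) lay within the range of the others. In tdT- CTL M2, the sdCAM library of the same animal, Spp1 was at 2809 CPM against 473 to 1079 CPM in the other tdT- CTL libraries. Lgals3 was at 108 CPM there, within the 78.2 to 252 CPM of the others. Cd300ld (140 CPM) was the highest of tdT- CTL there, and Cd300lb (21.6 CPM) was not. In MG BLZ945 M2 the levels were 11654 CPM for Spp1 and 555 CPM for Lgals3, against 746 to 6836 and 190 to 407 CPM. MG BLZ945 F2, the lowest of its group for Cd300lb and Cd300ld, was also the lowest for Spp1 and Lgals3. What these levels have to do with Cd300lb and Cd300ld was not tested.

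**Figure D3:**
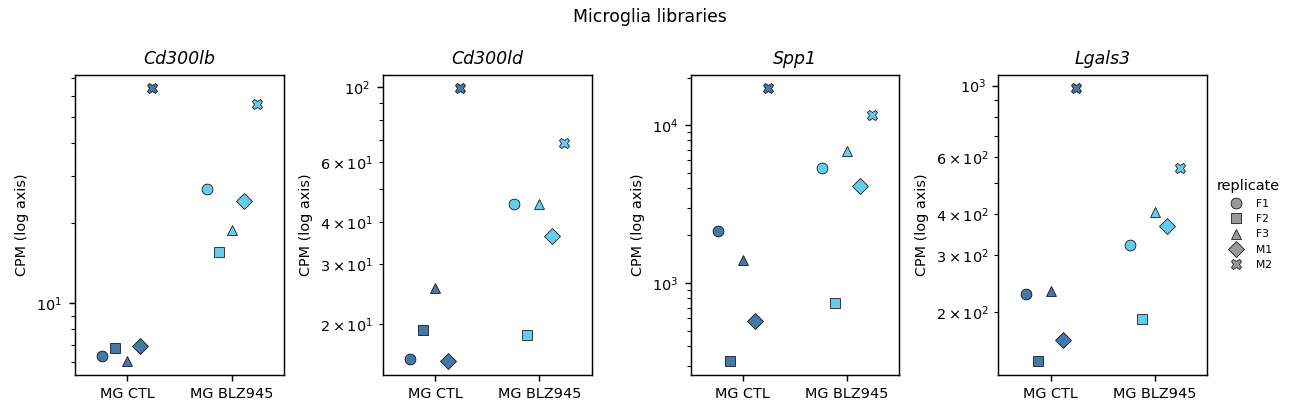
CPM on log axes of Cd300lb, Cd300ld, Spp1 and Lgals3 in the 10 microglia libraries, with the replicate label as the marker shape. MG CTL M2 stands above the other MG CTL libraries in all 4 panels (for Cd300lb 64.3 against at most 6.91 CPM), and MG BLZ945 M2 is the highest and F2 the lowest of MG BLZ945.

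Across populations, Cd300ld was higher in sdCAMs than in MG. The tdT- CTL libraries held 85.8 (F1), 75.8 (F2), 36.1 (F3), 86.6 (M1) and 140 CPM (M2), and the tdT- BLZ945 libraries held 147 (F1), 111 (F2), 124 (F3), 121 (M1) and 134 CPM (M2). The tdT+ libraries held 107 (F2), 130 (F3) and 92.9 CPM (M2). In each of the 10 tdT- pairs and the 3 tdT+ pairs the sdCAM library exceeded the MG library of the same animals, and in BLZ945 mice neither sdCAM group overlapped MG. The log2 fold changes over MG were 1.59 (SE 0.45, adjusted p = 0.00902) for tdT- BLZ945 and 1.36 (SE 0.47, adjusted p = 0.0366) for tdT+ BLZ945, both in edgeR. In the CTL brains it was 1.28 (SE 0.44, adjusted p = 0.0369 in edgeR), and 1.59 (SE 0.33, adjusted p = 0.00317) with the replicate block.

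The tdT- BLZ945 call held in all 10 fits without 1 library (adjusted p 0.00754 to 0.0275). The tdT- CTL call was lost without MG CTL F1, F2, F3 or M1 or tdT- CTL F1, M1 or M2 (highest adjusted p 0.116), and the log2 fold change rose to 2.16 (adjusted p 4.84e-05) without MG CTL M2. The tdT+ call held only without MG BLZ945 M2 among the 8 such fits (adjusted p 0.024 to 0.111), and was lost without the BLZ945 M1 libraries (1.31, SE 0.52, adjusted p = 0.076). Cd300lf and Cd300ld, which share the 134-base stretch printed above, thus differed between MG and sdCAMs in opposite directions.

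Cd300a, an inhibitory receptor for phosphatidylserine and phosphatidylethanolamine, was expressed in a narrow band. MG CTL held 274.9 (F1), 263.5 (F2), 225 (F3), 248 (M1) and 191 CPM (M2), and MG BLZ945 held 196 (F1), 257.5 (F2), 185 (F3), 189 (M1) and 167 CPM (M2). The tdT- CTL libraries held 216 (F1), 222 (F2), 265 (F3), 283.1 (M1) and 246 CPM (M2), and tdT- BLZ945 held 229 (F1), 311 (F2), 210 (F3), 363 (M1) and 300.4 CPM (M2). The tdT+ libraries held 193 (F2), 180 (F3) and 176 CPM (M2), below every tdT- library. In BLZ945 mice tdT- sdCAMs held more Cd300a than MG in 5 of 5 pairs (log2 fold change 0.52, SE 0.15, adjusted p = 0.0114 in edgeR), and the call held in all 10 fits without 1 library (adjusted p 0.00372 to 0.0414). It was lost without both M1 libraries, tdT- BLZ945 and MG BLZ945 (0.39, SE 0.16, adjusted p = 0.0788). In CTL mice the corresponding log2 fold change was 0.04 (SE 0.15, adjusted p = 0.885 in edgeR), with the sdCAM library higher in 3 of 5 pairs.

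The tdT+ libraries lay below the tdT- libraries of the same animal or pool in 3 of 3 pairs for Cd300a, and the groups did not overlap, yet the difference did not pass (log2 fold change -0.65, SE 0.18, adjusted p = 0.405, edgeR; adjusted p = 0.0574 in DESeq2). The summed sdCAM markers were also lower in every tdT+ library (11833 to 13491 CPM) than in every tdT- BLZ945 library (14255 to 17504 CPM), and their part in this difference was not tested. Between MG BLZ945 and MG CTL the log2 fold change of Cd300a was -0.28 (SE 0.13, adjusted p = 0.347, edgeR), and between tdT- BLZ945 and tdT- CTL it was 0.21 (SE 0.16, adjusted p = 0.998, edgeR). The difference between these 2 effects was 0.48 (SE 0.21) and did not pass either (adjusted p = 0.535, edgeR).

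Cd300c2, an activating receptor that pairs with DAP12, was the most abundant member and passed no test. MG CTL held 434 (F1), 415 (F2), 415 (F3), 420.1 (M1) and 329 CPM (M2), and MG BLZ945 held 402 (F1), 544 (F2), 408 (F3), 438 (M1) and 316 CPM (M2). The tdT- CTL libraries held 321 (F1), 289.6 (F2), 333 (F3), 350.3 (M1) and 342 CPM (M2), and tdT- BLZ945 held 304 (F1), 419.6 (F2), 371 (F3), 362 (M1) and 382 CPM (M2). The tdT+ libraries held 518 (F2), 324 (F3) and 321 CPM (M2), and all groups overlapped. In all 3 BLZ945 groups the highest library was F2, named for 1 animal. The largest difference was that of tdT- CTL from MG CTL (log2 fold change -0.29, SE 0.13, adjusted p = 0.0982 in edgeR), and it passed without MG CTL M2 (-0.36, adjusted p = 0.0467).

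Cd300lg did not reach the filter in any fit. It had 3 counts in MG CTL M1, 3 in MG BLZ945 F2 and 5 in MG BLZ945 F3, and 0 in the other 20 libraries. In the 13 sdCAM libraries the 0 counts allow up to 0.232 to 0.334 CPM per library, a floor of 3 counts that covers counting error only.

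Within the sdCAM compartment no member passed. In tdT- BLZ945 against tdT- CTL, 0 of 5 members and 0% of the 13076 genes tested were called by edgeR (697 genes had an unadjusted p under 0.05), 1 member had an unadjusted p under 0.05 (Cd300ld, log2 fold change 0.60, SE 0.25, adjusted p = 0.835), and DESeq2 called 0 members. The dendritic cell markers summed to 219 to 780 CPM in tdT- CTL, to 31.4 to 164 CPM in tdT- BLZ945 and to 34.8 to 88.3 CPM in tdT+ BLZ945, in cells sorted as CD11c-. The sums were thus lower in both BLZ945 sdCAM groups than in every tdT- CTL library. They do not describe every marker: Xcr1 had no counts in any sdCAM group, Itgax none in tdT- CTL and Clec9a none in tdT+ BLZ945. The part of these sums in the comparisons with tdT- CTL was not tested. In tdT+ BLZ945 against tdT- BLZ945, edgeR and DESeq2 called 0 of 5 members, with 1 at an unadjusted p under 0.05, where 0.206% of genes were called by edgeR. In tdT+ BLZ945 against tdT- CTL, both tools called 0 members, with 2 at an unadjusted p under 0.05, where edgeR called 0.283% of genes. These 2 were Cd300lf (log2 fold change 1.44, SE 0.65, adjusted p = 0.645), whose groups did not overlap, and Cd300a (-0.44, SE 0.18, adjusted p = 0.614). These 3 comparisons share libraries and are not independent.

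Between populations many genes were called, and each count of members is given beside that share. In tdT- CTL against MG CTL 1 of 5 members was called, where 25.6% of all genes were. In tdT- BLZ945 against MG BLZ945 3 of 5 were called, where 32.4% of genes were, and in tdT+ BLZ945 against MG BLZ945 2 of 5, where 25.2% were. The test of whether BLZ945 acted differently in tdT- sdCAMs and MG called 0 of 5 members in edgeR and DESeq2, with Cd300a at an unadjusted p under 0.05, and 0.0394% of genes in edgeR. For Cd300lf that difference was -0.74 (SE 0.68, adjusted p = 0.815, edgeR), so its rise in MG was not shown to differ from the value of 1.03 (SE 0.59) in tdT- sdCAMs.

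**Figure D4:**
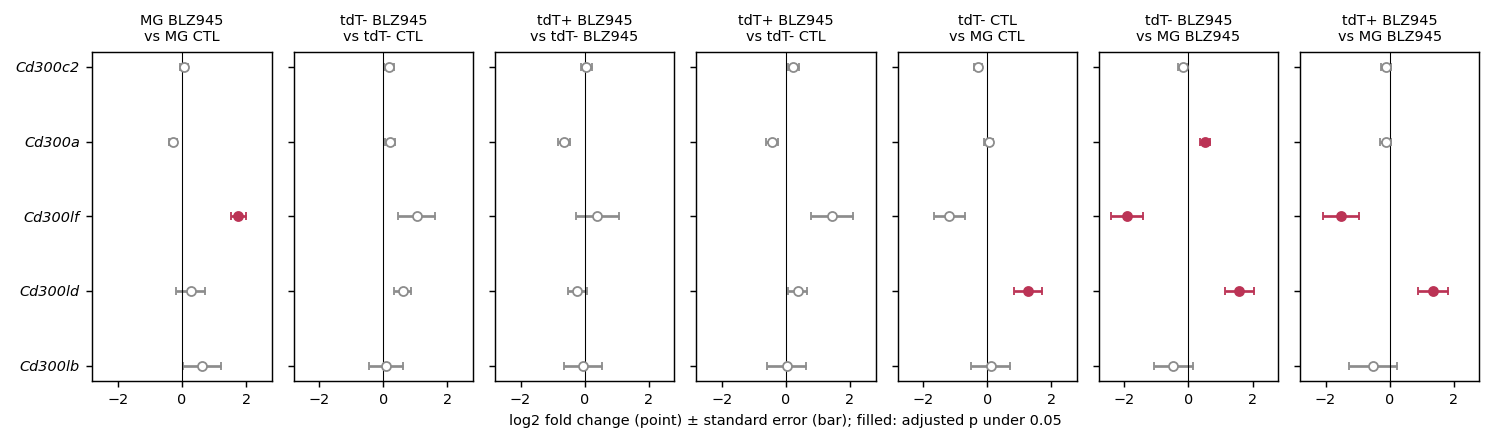
Log2 fold changes (points) with their standard errors (bars) of 5 members in 7 comparisons; filled points passed an adjusted p of 0.05 in edgeR. Cd300lf is filled at 1.76 in repopulated against vehicle MG and at -1.92 in tdT- BLZ945 sdCAMs against MG, where Cd300ld is filled at 1.59.

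The remaining Cd300 genes had few counts. Cd300c had at most 9 counts in a library and Cd300e at most 18, and Cd300ld4 and Cd300ld5 had at most 3. Cd300ld2 was found mainly in tdT- sdCAMs, at 1.42 ± 1.02 CPM in CTL and 3.36 ± 2.60 CPM in BLZ945 mice (SD, n = 5). MG CTL held 0 counts in all 5 libraries, so the mean of tdT- CTL was at least 27.7-fold higher (floor of 3 counts over the group). Single tdT- CTL libraries ran from 0 (F3) to 2.43 CPM (M2), so this bound holds for the mean only. Cd300ld2 was called in both tdT- comparisons with MG (adjusted p 0.00228 and 0.00317, edgeR). Cd300ld3 was called in tdT- BLZ945 against MG BLZ945 (1.78 ± 2.77 against 0.157 ± 0.236 CPM, adjusted p = 0.039 in edgeR). In that group tdT- BLZ945 F2 held 6.71 CPM and the other 4 libraries 0.18 to 0.965 CPM, with a mean of 0.543 ± 0.327 CPM (SD, n = 4) without F2. The call was lost without tdT- BLZ945 F2 (log2 fold change 1.71, adjusted p = 0.276) and without MG BLZ945 F1, F2, F3 or M2, whereas both calls of Cd300ld2 held in all 10 such fits. These values are uncertain, because 31.0% of the 50-base windows of Cd300ld2, 82.1% of Cd300ld3 and 100% of Cd300ld5 are shared within the family. The symbol Cd300lh was not found in the table.

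The adaptors and signalling proteins behind the receptors (15 genes, all tested) showed no called change within a population. In repopulated against vehicle MG, 0 of 15 were called by edgeR, where 0.408% of all genes were. Of the 15, 4 had an unadjusted p under 0.05, as had 1492 of all 11264 genes tested. The list's median log2 fold change was 0.15 beside 0.00 for all genes. In tdT- BLZ945 against MG BLZ945, 2 of 15 were higher and 6 lower, where 32.4% of all genes were called, with a median of -0.46 beside -0.02. Fcer1g, the Fc receptor gamma chain, was 4674 ± 1670 CPM in tdT- BLZ945 and 2257 ± 336 CPM in MG BLZ945 (log2 fold change 1.06, SE 0.20, adjusted p = 0.00025 in edgeR). Fyn, a Src family kinase, was also higher (1.00, SE 0.33, adjusted p = 0.0238). Lower were Plcg2, a phospholipase downstream of such adaptors (-1.78, SE 0.17, adjusted p = 2.63e-08), and Inpp5d, the lipid phosphatase SHIP that inhibitory tails recruit (-1.55, SE 0.19, adjusted p = 1.11e-06).

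In tdT- CTL against MG CTL, 1 of the 15 was higher (Fcer1g, 0.74, SE 0.20, adjusted p = 0.00667 in edgeR) and 7 were lower, where 25.6% of all genes were called, with a median of -0.16 beside -0.01. Among the latter Fgr, a Src family kinase, stood at 0.149 ± 0.255 against 8.59 ± 6.06 CPM and Plcg2 at 49.5 ± 9.82 against 127 ± 17.9 CPM. In tdT+ BLZ945 against MG BLZ945, 2 were higher and 7 lower, where 25.2% of all genes were called, with a median of -0.73 beside -0.01. The adaptor Hcst was higher, at 57.5 ± 14.7 against 23.1 ± 4.89 CPM (adjusted p = 0.0115 in edgeR), and Fgr, at 0 counts in the 3 tdT+ libraries, was at least 146-fold lower (floor of 3 counts over the group). No gene of the list was called in the comparisons among sdCAMs or in the interaction. In tdT- BLZ945 against CTL, 2 of 15 had an unadjusted p under 0.05, as had 697 of all 13076 genes (0% called). In tdT+ against tdT- BLZ945 it was 1 of 15, beside 903 of 13076 genes (0.206% called). In tdT+ against tdT- CTL it was 2 of 15, beside 973 of 13076 genes (0.283% called). The interaction had 1 of 15, beside 1104 of 12697 genes (0.0394% called).

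Of the receptor partners, Il4ra, Tlr4 and Cd14 could be tested and Havcr1 could not. The interleukin-4 receptor chain Il4ra, which Cd300lf can join, was higher in tdT- sdCAMs than in MG, at 595 ± 260.3 against 269 ± 51.2 CPM in CTL (log2 fold change 1.15, SE 0.27, adjusted p = 0.00288, edgeR) and at 527 ± 237 against 267 ± 33.3 CPM in BLZ945 mice (0.99, SE 0.27, adjusted p = 0.0078, edgeR). Tlr4, the endotoxin receptor that Cd300lb can join, was higher in tdT- CTL than in MG CTL (0.68, SE 0.24, adjusted p = 0.0383, edgeR). These were 2 of 3 partners called in CTL and 1 of 3 in BLZ945 mice, where 25.6% and 32.4% of all genes were. None of the 3 was called by edgeR in the other 6 comparisons, where at most 1 had an unadjusted p under 0.05. Of all genes, 25.2% were called in tdT+ BLZ945 against MG BLZ945, and 0% to 0.408% in the rest of these comparisons.

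The other receptors and bridging proteins for phosphatidylserine (18 genes) were mostly called between populations and seldom within one. In repopulated against vehicle MG, 2 of 13 tested genes passed, where 0.408% of all genes did, both higher: Cd36, a scavenger receptor (120 ± 67.6 against 22.9 ± 16.2 CPM, log2 fold change 2.38, SE 0.50, adjusted p = 0.0497 in edgeR), and Axl, a receptor tyrosine kinase that clears dying cells (75.4 ± 14.4 against 15.9 ± 13.7 CPM, 2.24, SE 0.37, adjusted p = 0.01). Their rise stood beside that of Cd300lf, and the median of the list was 0.10 beside 0.00 for all genes. Timd4, a phosphatidylserine receptor of resident macrophages, was lower in tdT+ than in tdT- sdCAMs of BLZ945 mice (13.5 ± 9.84 against 168 ± 67.4 CPM, log2 fold change -3.65, SE 0.43, adjusted p = 0.000893 in edgeR) and than in tdT- CTL (-3.96, SE 0.44, adjusted p = 0.000464). It was the only one of 16 genes called in these 2 comparisons, where 0.206% and 0.283% of all genes were.

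Between sdCAMs and MG, 15 of 17 tested genes of this list were called in CTL (7 higher, 8 lower), where 25.6% of all genes were, with a median of -0.51 beside -0.01. In tdT- BLZ945 against MG BLZ945 16 of 17 were called (7 higher, 9 lower), where 32.4% of all genes were, with a median of -0.63 beside -0.02. In tdT+ BLZ945 against MG BLZ945 15 of 17 were called (7 higher, 8 lower), where 25.2% of all genes were, with a median of 0.56 beside -0.01. In CTL, Timd4 (210 ± 31.0 against 0.473 ± 0.324 CPM) and Cd36 (691 ± 91.2 against 22.9 ± 16.2 CPM) were the most raised. Itgb3, an integrin subunit (0.257 ± 0.189 against 28.7 ± 6.47 CPM), and Havcr2, the receptor TIM-3 (24.9 ± 15.6 against 321 ± 84.1 CPM), were the most lowered. The same 2 genes led the lower side in both BLZ945 comparisons, with Havcr2 at 67.8 ± 24.2 CPM in tdT-, 85.5 ± 9.76 CPM in tdT+ and 466 ± 48.5 CPM in MG, and Itgb3 at 0 counts in the tdT+ libraries, at least 358-fold below MG (floor of 3 counts over the group). Scarf1, a scavenger receptor for dying cells, joined Timd4 on the higher side there, at 19.5 ± 20.5 CPM in tdT- and 26.3 ± 12.9 CPM in tdT+ sdCAMs against 0.685 ± 0.634 CPM in MG. None of the list was called by edgeR in tdT- BLZ945 against CTL or in the interaction, where 0% and 0.0394% of all genes were. In tdT- BLZ945 against CTL, 2 of 16 had an unadjusted p under 0.05, as had 697 of all 13076 genes. In the interaction it was 5 of 17, beside 1104 of all 12697 genes.

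**Figure D5:**
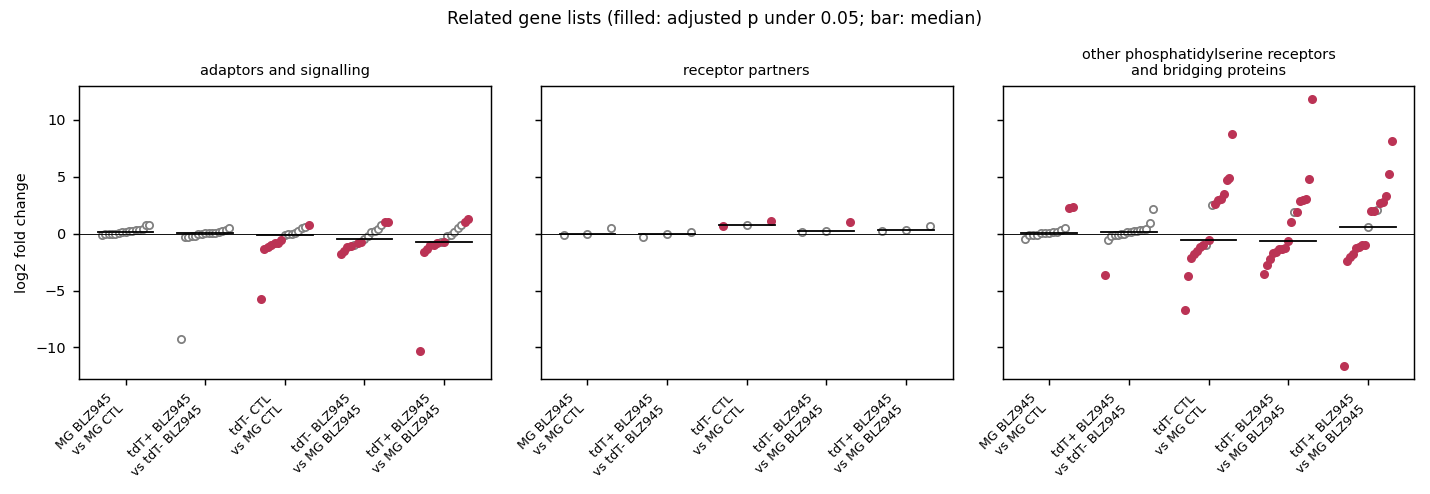
Log2 fold changes of the tested genes of 3 related lists in 5 comparisons; each point is a gene, filled where its adjusted p was under 0.05 in edgeR, and the bar is the list's median. Called points are few in MG BLZ945 against MG CTL (0, 0 and 2) and fill most of the phosphatidylserine list in the comparisons of sdCAMs with MG.

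The patterns most like those of the members over the 23 libraries were found among 9704 genes, by the root-mean-square (RMS) difference of centred log2(CPM + 1) values. Nearest to Cd300lb were the cytokine Osm (RMS difference 0.66), the cell cycle inhibitor Cdkn1a (0.68) and the transcription factor Klf10 (0.73), where the member's own RMS deviation was 0.95. Nearest to Cd300ld (1.06) were the scavenger receptor Msr1 (0.50), Rab7b (0.50) and Iqgap1 (0.53), and nearest to Cd300lf (1.23) were Rap1gap2 (0.76), Bcl2a1d (0.76) and Glipr1 (0.78). Cd300a (0.29) and Cd300c2 (0.23) varied little, and their nearest genes (Ywhab, Glod4 and Cd164, and Rhog and Vps28) differed by 0.21 to 0.22 and by 0.17. The points share libraries, depth and sorting.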

How the data were processed

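RNA was sequenced from 23 sorted libraries in 5 groups. The authors deposited raw counts per gene. Per the labels' processing notes, bcl2fastq 2.20, STAR 2.7.11a, featureCounts 2.0.6 and DESeq2 1.46.0 were used; how multi-mapping or strand was handled is not given in the sources used here. The libraries held 9433960 to 13276081 counts, PCR copies cannot be told from molecules, and intervals or floors cover counting error only.

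Here, edgeR 4.0.16 (R 4.3.3) fitted the deposited counts with its quasi-likelihood test, TMM factors and the filterByExpr filter, with Benjamini-Hochberg adjustment over all genes tested and a threshold of 0.05. Comparisons within MG, within sdCAMs and between them used their own libraries, and that of tdT+ with MG used all 23. CPM used TMM-scaled totals, and per-length levels merged GENCODE exons. DESeq2 1.42.0, other factors, no filter, all 23 libraries, a replicate block and leaving out each library were alternatives. The script was tested on simulated data. Each library is 1 animal or pool, so p-values measure the spread between these; BLZ945 F2 and M1 may share an animal, by their library names, and fits without the BLZ945 M1 libraries were added after the data were seen.

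Within a treatment, the labels pair libraries of the same animal or pool; the correlations of their deviations from the group means ranged from 0.0287 to 0.183. Between treatments the labels are only names.

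The members and lists were chosen with earlier results of these data known. All members were named, and of each related list at most 2 called genes per direction in a comparison, those of greatest log2 fold change, and the 3 genes nearest in pattern to each tested member, of which 1 is not reported here. Spp1 and Lgals3 were chosen after their values were seen. Analyses used Python 3.11.15 and pandas 2.3.3, and figures matplotlib 3.10.9.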

Additional observations from a re-analysis of the deposited data

Results flagged for a closer look

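In 4 of 20 sets of a member in a group of 5 libraries, 1 library stood far from its neighbour on the scale of log2(CPM + 1). On that scale its distance, relative to the whole range, exceeded Dixon's critical value of 0.71 for 5 libraries, where chance gives about 1 in 20. The group of 3 was not examined, and the values below are in CPM. Cd300lf was at 108 CPM in MG BLZ945 F3, against 57.2 to 68.0 CPM in the other MG BLZ945 libraries. The library MG CTL M2 accounted for the other 3. It held Cd300lb at 64.3 CPM against 6.07 to 6.91 CPM, Cd300ld at 99.2 CPM against 15.5 to 25.6 CPM, and Cd300c2 at 329 CPM against 415 to 434 CPM in the other MG CTL libraries.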

How the results depend on the processing

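Members called in MG BLZ945 against MG CTL numbered 1, but 0 with all 23 libraries, 2 without both M2 libraries (chosen after seeing the data) and 1 to 2 without 1 library. In tdT- CTL against MG CTL 1 became 2 with the replicate block and 0 to 3 without 1 library. In tdT+ BLZ945 against MG BLZ945 2 became 1 with RLE factors, with no filter, with the 13 BLZ945 libraries, with the replicate block and without the BLZ945 M1 libraries (chosen after seeing the data), and 0 to 1 without 1 library. In tdT- BLZ945 against MG BLZ945 3 became 2 without the BLZ945 M1 libraries and stayed at 3 under the other alternatives run, and in the other comparisons it stayed at 0. No called member reversed, and where libraries were paired by animal the replicate block changed no call but those of Cd300lf. Between treatments a shared label is only a name; there the replicate block gave Cd300lb in MG 1.27 (adjusted p = 0.0545 in edgeR) and changed no call. With the replicate block, uncalled log2 fold changes turned to -0.18 (Cd300lb, tdT- BLZ945 against tdT- CTL), -0.062 (Cd300c2, tdT+ against tdT- BLZ945) and -0.46 (Cd300lb, tdT+ against tdT- CTL), and without both M2 libraries the interaction of Cd300ld turned to -0.34. Without 1 library, Cd300c2 ranged from -0.054 to 0.14 (MG BLZ945 against CTL), -0.19 to 0.19 (tdT+ against tdT- BLZ945) and -0.022 to 0.35 (tdT+ against tdT- CTL). Cd300lb ranged from -0.30 to 0.27 (tdT- BLZ945 against CTL), -1.05 to 0.41 (tdT+ against tdT- BLZ945), -0.99 to 0.48 (tdT+ against tdT- CTL) and -0.12 to 1.57 (tdT- against MG CTL). Cd300a ranged from -0.033 to 0.094 (tdT- against MG CTL) and the interaction of Cd300ld from -0.58 to 0.56. The cause was not tested. Depth limits Cd300lg, Cd300c, Cd300e, Cd300ld4 and Cd300ld5, which had at most 18 counts in a library.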
